A study of Arabidopsis thaliana with 36 samples.

Results

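Chromatin immunoprecipitation with sequencing (ChIP-seq) of pTAC3 in Arabidopsis seedlings was compared between Col-0, the wild type, and the ptac3 mutant, which lacks the antigen. The 12 libraries of this experiment, of 36 in the series, were chosen by the antibody named in their titles. They formed 4 groups of 3 replicates: pTAC3 ChIP and input (chromatin not precipitated) in Col-0, and pTAC3 ChIP and input in ptac3. All seedlings were 5 days old, had been stratified for 48 h and then kept in continuous light of 100 µmol per m2 and s, and received no other treatment. Tissue was fixed with 4% formaldehyde for 4 h and plastids were enriched from pools of seedlings. The ptac3 allele is not described in the sources used here. A genotype tag reads wild type for every library, mutants included, so the plant line and title were used. The pTAC3 gene lies in the nucleus, and coverage of the plastid genome gives no check of the genotype.

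Plastids carry a bacterial-type RNA polymerase, PEP, whose core subunits are encoded by the plastid genes rpoA, rpoB, rpoC1 and rpoC2. Nucleus-encoded associated proteins assemble on this core, and pTAC3 (also named PAP1, with a SAP domain) is one of them. A separate phage-type enzyme, NEP, transcribes some plastid genes, and mutants that lack a PEP-associated protein are typically pale or albino with little PEP transcription. The ptac3 seedlings therefore differ from Col-0 in more than the antigen, and the loss of the antigen and other changes in the mutant plastids cannot be told apart with these libraries.

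Enrichment is the log2 ratio of scaled ChIP coverage to scaled input coverage, so that 0 means equal to input and 1 means 2 times input. Since each library was scaled to its own mean, high values in 1 part of the genome are balanced by low values elsewhere. The difference Col-0 minus ptac3 depends on that scaling. Scaled to the median bin, every gene difference was larger by 0.91 (log2), and scaled to the mean of rpoB, rpoC1 and rpoC2 by 1.53. Differences between parts of the genome within a library do not depend on it. Mean coverage per position was 420, 573 and 244 in the Col-0 ChIP libraries, 144, 59.2 and 173 in the ptac3 ChIP libraries, and 318 to 924 in the inputs. The counting error at a single position of mean coverage was at most 8.32% except in ptac3 replicate 2, the shallowest of the 12. No molecular identifiers are mentioned in the labels, so this covers counting error only.

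The ptac3 libraries were close to flat, and they give the background for the antibody. The standard deviation of enrichment over 50-bp bins was 0.222, 0.315 and 0.204 in ptac3 replicates 1 to 3, against 1.01, 1.20 and 1.27 in Col-0. In ptac3, limma called 0 of 3086 bins (0%) different from input at an adjusted p under 0.05. At an unadjusted p under 0.05 there were 338 such bins, of which 133 lay above input, and with each bin keeping its own spread limma called 1, below input. Across bins their correlation with the mean Col-0 profile was -0.30, 0.48 and 0.27 in replicates 1, 2 and 3, given as a description of bins that share a template. Over the 4 rRNA gene entries the mean was -0.28, 0.47 and 0.15 in the same order. Of 113 gene entries, with the inverted repeat counted once, the mean enrichment in ptac3 ran from -0.21 to 0.51. The highest belonged to trnQ (ArthCt090), a gene for a glutamine tRNA that is named here for its value. Input coverage also differed little between the lines, by -0.21 to 0.12 in Col-0 minus ptac3 over the same entries, with the lowest value at trnE, and without division by input the Col-0 minus ptac3 difference of the ChIP libraries at trnE was 2.05.

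Signal above the mutant was found in 654 of 3086 bins (21.2%) that were higher in Col-0 than in ptac3, while 2056 (66.6%) were lower (limma, adjusted p under 0.05). In 639 of the 654 higher bins the lowest Col-0 library lay above the highest ptac3 library. Those bins had been picked by a test on the same libraries. Separation in either direction was also common over genes, at 102 of 113 entries with the inverted repeat counted once. Comparing Col-0 ChIP with its own input alone would have called 701 bins (22.7%) above input. The 2 calls shared 646 bins, which is 98.8% of the mutant-controlled bins and 92.2% of the input-controlled bins. The 55 bins called against input alone had a median Col-0 minus ptac3 difference of 0.31. Among the higher bins 31.3% overlapped a tRNA gene, 28.6% an rRNA gene and 9.17% a protein-coding gene, and 32.4% overlapped no gene. Over all bins tested these shares were 7.65%, 6.06%, 61.0% and 26.3%. These counts and shares include both copies of the inverted repeat, so the rRNA unit enters them in each copy. With the first copy only, 485 bins were higher and 1746 lower.

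Adjacent higher bins joined into 41 regions of 32700 bp in all. Without the second copy of the inverted repeat there were 37 regions, which covered 24050 bp and were typically short (median 200 bp). A tRNA or rRNA gene lay in 22 of them with 20100 bp, 7 with 2950 bp overlapped protein-coding genes only, and 8 with 1000 bp overlapped no gene. The longest, of 8000 bp, held the ribosomal RNA unit with its flanking trnV and trnR genes. The shortest 6 were single bins.

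By gene, 47 of 128 entries (36.7%) were higher in Col-0 and another 67 (52.3%) lower (limma, adjusted p under 0.05). With the inverted repeat counted once, the split was 37 higher, 62 lower and 14 not passing. It became 55 higher and 20 lower with scaling to the median bin, and 93 higher with scaling to the rpo genes. The 15 gene pairs in the inverted repeat gave similar values in both copies, the second minus the first lying between -0.12 at rpl23 and 0.24 at rrn4.5S. Reads from the copies cannot be told apart, so these are not separate measurements.

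All 30 tRNA gene entries were higher in Col-0 (median difference 1.27, against -0.66 over all 113 entries). Both other scalings raise every difference by a constant, so they could not reverse this and are no check of it. With each gene keeping its own spread, 28 of the 30 tRNA entries passed. The highest was trnE (ArthCt097), whose glutamate tRNA also feeds tetrapyrrole synthesis. Its enrichment was 2.29, 2.49 and 2.41 in Col-0 replicates 1 to 3 and -0.28, 0.19 and 0.49 in ptac3. The Col-0 libraries stood well above the ptac3 libraries, by 2.26 ± 0.17 (SE, limma adjusted p = 5.22e-34). That p-value rests on the spread common to all genes, and it was 0.0036 with trnE keeping its own spread. A gene for a methionine tRNA, trnM (ArthCt104), named for its value, followed at 1.89, with Col-0 libraries between 1.87 and 2.12 and ptac3 libraries between -0.20 and 0.34. The lowest was trnK (ArthCt089), whose long intron holds matK, the gene of an intron maturase. It had 0.39, 0.47 and 0.28 in Col-0 against 0.01, -0.05 and 0.03 in ptac3, so the groups did not overlap, and the difference was 0.38 ± 0.17 (SE, limma adjusted p = 0.0257). Without Col-0 replicate 2, ptac3 replicate 2 or ptac3 replicate 3 that call was lost (adjusted p = 0.107, 0.0527 and 0.0602). Groups overlapped at 1 tRNA entry of the 30, trnR (ArthCt093), named for this reason, at 0.54. Separation was not particular to tRNA genes: in either direction it held at 102 of the 113 entries and 69 of 79 protein-coding genes.

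All 4 rRNA entries were higher in Col-0 too, with a median difference of 1.61. At rrn16S (ArthCr086), the RNA of the small ribosomal subunit, enrichment was 1.83, 2.03 and 2.33 in Col-0 against -0.26, 0.56 and 0.23 in ptac3. At rrn23S (ArthCr087), the RNA of the large subunit, it was 1.64, 1.66 and 1.95 against -0.33, 0.35 and 0.10. Each Col-0 library lay above each ptac3 library at both genes, and the differences were 1.88 and 1.71. The smallest of the class was 1.36 at rrn4.5S (ArthCt109), another large-subunit RNA.

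A contrast within each library, free of scaling, gave the same order of classes. The mean of tRNA genes minus that of protein-coding genes was 1.93, 2.24 and 2.25 in Col-0 against 0.01, 0.34 and 0.19 in ptac3. The groups, 2.14 ± 0.18 and 0.18 ± 0.17 (SD, n = 3 each), did not overlap and differed by 1.96 (exact permutation test, two-sided, p = 0.1, the smallest that 3 against 3 allows). For rRNA genes minus protein-coding genes the values were 2.18, 2.53 and 2.88 in Col-0 against -0.33, 0.54 and 0.14 in ptac3, a difference of 2.41 (exact permutation test, two-sided, p = 0.1, likewise the smallest).

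**Figure D1:**
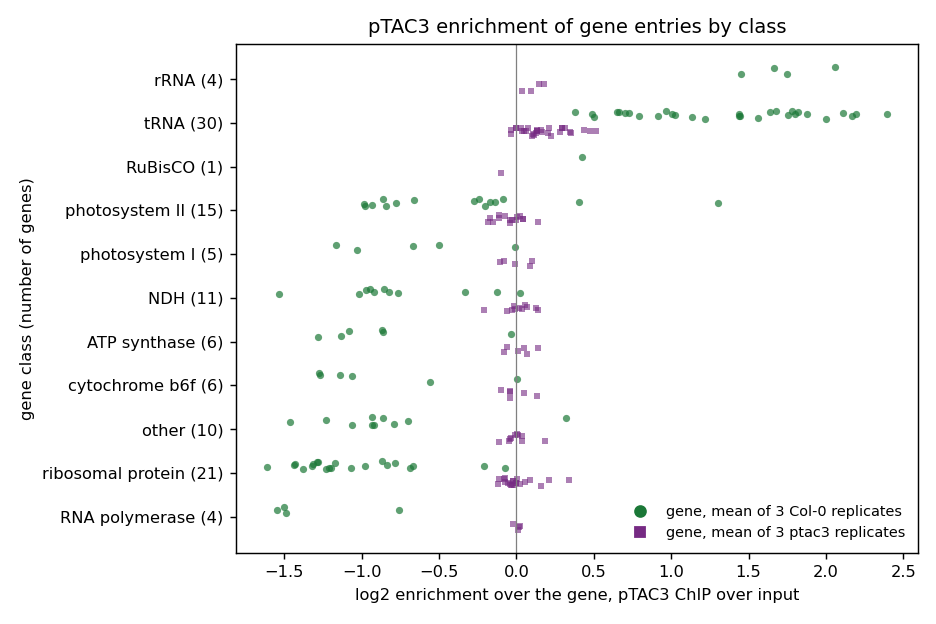
Mean log2 enrichment of pTAC3 ChIP over input for each of 113 gene entries, by class, in Col-0 (circles) and ptac3 (squares), each a mean of 3 replicates; classes are on the vertical axis with their number of genes. All 34 tRNA and rRNA entries lie above 0 in Col-0, most protein-coding genes lie below 0, and ptac3 values stay between -0.21 and 0.51.

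Of 79 protein-coding genes 3 were higher in Col-0, 62 were lower and 14 did not pass, and their median difference was -0.91. The 62 lower calls depend on scaling to the library mean: with scaling to the median bin 20 protein-coding genes were lower and 21 higher, and with scaling to the rpo genes 59 were higher. The order among these genes does not depend on scaling, and it is what follows.

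The 3 higher genes belong to photosynthesis, and with each gene keeping its own spread matK passed as well. psbA (ArthCp002), for the D1 protein of photosystem II, had 1.10, 1.39 and 1.41 in Col-0 against -0.24, 0.28 and -0.05 in ptac3. Every Col-0 library was above every ptac3 library there, by 1.31 ± 0.17 (SE, limma adjusted p = 8.69e-14). This p-value rests on the spread common to all genes. Among transcription units, with each keeping its own spread, psbA had a limma adjusted p of 0.0042. rbcL (ArthCp030), for the large subunit of RuBisCO, had 0.31, 0.54 and 0.42 in Col-0 against -0.25, -0.08 and 0.03 in ptac3, a difference of 0.52. psbI (ArthCp006), for a small photosystem II subunit, had 0.29, 0.55 and 0.37 against -0.04, 0.20 and -0.02, a difference of 0.36 (limma adjusted p = 0.0363). That call at psbI was lost without Col-0 replicate 2 (0.28), ptac3 replicate 1 (0.31) or ptac3 replicate 3 (0.33).

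The other photosynthesis genes are given by complex, and their lower counts are to be read against the 78.5% of all protein-coding genes that were lower. Of 15 photosystem II genes 2 were higher and 7 lower, and with scaling to the median bin 8 were higher and 0 lower. Their median difference was -0.22 and the lowest was -0.99 at psbF (ArthCp038), for a cytochrome b559 subunit. Of 5 photosystem I genes 4 were lower, but 3 were higher and 1 lower with scaling to the median bin. They ran from psaC (ArthCp075), for the iron-sulphur subunit, at -1.27 to psaJ, for a small subunit, at 0.00, with the reaction centre gene psaA at -0.42. The psaA call was lost in limma without Col-0 replicate 2 (-0.33) or ptac3 replicate 3 (-0.37). Of 11 NDH genes 9 were lower, from -1.47 at ndhB to 0.05 at ndhC, and with scaling to the median bin 3 were higher and 1 lower. Of 6 ATP synthase genes 5 were lower, from -1.35 at atpI to -0.05 at atpE, and with scaling to the median bin 1 was higher and 2 lower. Of 6 cytochrome b6f genes 5 were lower, from -1.23 at petB to -0.13 at petN, and with scaling to the median bin 1 was higher and 2 lower. The last 3 classes had median differences of -0.91, -0.98 and -1.10. Their shares of lower genes, 81.8%, 83.3% and 83.3%, and the 80% of photosystem I, were close to that of all protein-coding genes.

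The remaining protein-coding classes include the ribosomal protein and RNA polymerase genes. Of 21 ribosomal protein genes 19 were lower, and with scaling to the median bin 9 were lower and 3 higher. Their median difference was -1.15, with a range from rps14 at -0.10 to rps7 at -1.56. A region of higher bins that holds the tRNA genes trnG and trnfM reaches into rps14, and their part in its value was not tested. All 4 RNA polymerase genes were lower, and with scaling to the median bin 3 were, rpoA then being at 0.13. The rpoA difference was -0.78 and the others lay between -1.48 and -1.57. The lowest of all was rpoC2 (ArthCp012), for a PEP core subunit, with -1.21, -1.71 and -1.72 in Col-0 against 0.06, -0.02 and 0.04 in ptac3. The groups did not overlap, and the difference was -1.57. It was -0.66 with scaling to the median bin and -0.04 with scaling to the rpo genes, of which it is one. Of 10 genes in no other class 9 were lower, and with scaling to the median bin 2 were lower and 1 higher. Among them were clpP, for a protease subunit, at -0.96, accD, for a subunit of acetyl-CoA carboxylase, at -0.95, and ycf2 at -1.42. matK at 0.31 did not pass (limma adjusted p = 0.072). It passed as higher with each gene keeping its own spread (0.0108), with group mean inputs (0.048), with ChIP alone (0.0492), and without Col-0 replicate 1 (0.0334) or Col-0 replicate 3 (0.0399), and with either other scaling.

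Transcription units were then compared as wholes, from the first base of the first gene to the last base of the last. Of 54 units 26 (48.1%) were higher in Col-0 and another 23 (42.6%) lower (limma, adjusted p under 0.05), and with scaling to the rpo genes 49 were higher. Apart from psbA and rbcL, each of the 26 held a tRNA or rRNA gene. The rRNA unit, from rrn16S to the last rRNA entry of 121 bp, had 1.69, 1.76 and 2.04 in Col-0 against -0.30, 0.40 and 0.13 in ptac3. Its Col-0 libraries were all above its ptac3 libraries, by 1.75 ± 0.15 (SE). Among tRNA units of several genes the differences were 1.51 for trnL-trnF, 1.43 for trnP-trnW, 1.31 for trnE-trnY-trnD and 1.19 for trnG-trnR. The value for trnL-trnF lies above those of its own genes, 1.03 at trnL and 1.34 at trnF. The largest bin difference of its region, 2.66, lay at positions 47551 to 47600, before trnF. The trnK-matK unit had the smallest passing value, 0.38, and did not pass without Col-0 replicate 2.

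The 5 units that did not pass were psbK-psbI at 0.01, psbD-psbC-psbZ at -0.02, psbM at -0.10, petN at -0.13 and ndhC-ndhK-ndhJ at -0.25. The first 2 encode photosystem II subunits, the next 2 small subunits of photosystem II and cytochrome b6f, and the last NDH subunits. In psbD-psbC-psbZ, which includes the D2 reaction centre gene psbD, enrichment was -0.02, -0.13 and -0.05 in Col-0 against -0.07, -0.08 and 0.02 in ptac3. These values overlap. The span of this unit also holds the tRNA gene trnS (ArthCt117), at a difference of 1.45, and the unit value lies above those of its own genes, -0.22 at psbD, -0.13 at psbC and -0.03 at psbZ. The largest depletion was at rpoB-rpoC1-rpoC2, with -1.21, -1.66 and -1.67 in Col-0 against 0.01, 0.00 and 0.02 in ptac3, a difference of -1.52, which is 0.01 with scaling to the rpo genes themselves. It was followed by rps7-ndhB at -1.49 and ycf2 at -1.42.

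**Figure D2:**
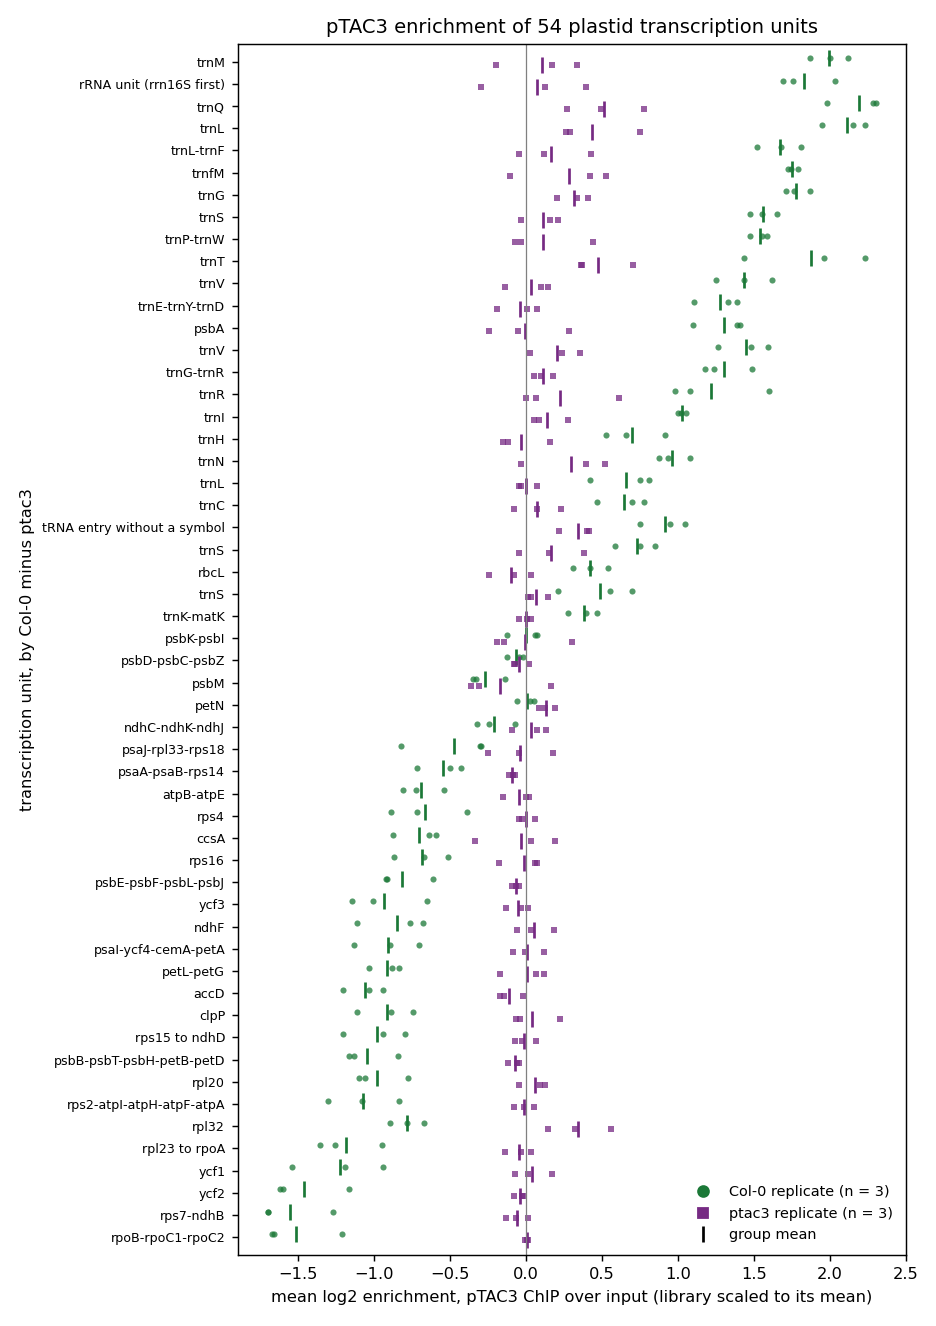
Mean log2 enrichment of pTAC3 ChIP over input for 54 transcription units (vertical axis, ordered by Col-0 minus ptac3), with each of 3 replicates of Col-0 (circles) and ptac3 (squares) and the group means (bars). Units of tRNA and rRNA genes, psbA and rbcL fill the upper part, where Col-0 is higher, and single ptac3 libraries range from -0.37 to 0.77, the highest at trnQ.

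Signal was not spread evenly along units. For the 20 units of at least 2 genes, the window from 250 bp before to 50 bp after the start of the first gene was compared with the last gene within each library, which is free of scaling. Starts follow gene strands taken from textbook knowledge of the plastid genome. The start exceeded the last gene more in Col-0 than in ptac3 in 9 units (45%), and less in 3 (15%; limma, adjusted p under 0.05). The steepest was psbB-psbT-psbH-petB-petD, which encodes a photosystem II antenna protein first and a cytochrome b6f subunit last. There the start exceeded petD by 1.42, 1.63 and 1.81 in Col-0 and by 0.16, -0.15 and 0.04 in ptac3. The groups were far apart, at a difference of 1.60 ± 0.20 (SE, limma adjusted p = 7.77e-11). This p-value rests on the spread common to all units, and it was 0.0037 with the unit keeping its own spread. In the unit of cytochrome b559 genes, psbE-psbF-psbL-psbJ, the same quantity was 1.35, 1.69 and 1.30 in Col-0 against 0.15, 0.30 and 0.00 in ptac3, a difference of 1.30. For psaA-psaB-rps14, with the 2 reaction centre genes of photosystem I, it was 0.57, 0.51 and 0.81 in Col-0 against -0.05, 0.09 and -0.31 in ptac3, a difference of 0.72. The last gene of this unit, rps14, neighbours the tRNA gene trnfM, whose part in the slope was not tested.

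In both the psbB and the psbE unit the signal at the start was positive and the genes behind it were negative. These signs depend on scaling to the library mean, while the fall from the start to the genes does not. Col-0 enrichment in the psbB unit was 0.34 in the start window, then -0.78 over psbB, -0.93 over psbT, -0.98 over psbH, -1.27 over petB and -1.28 over petD. In the psbE unit it was 0.59 in the start window and between -0.66 and -0.98 over its 4 genes.

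The other units with a passing excess at the start were psaJ-rpl33-rps18 (1.37), the rRNA unit (0.86), rpl23 to rpoA (0.76), trnE-trnY-trnD (0.73), trnG-trnR (0.69) and trnL-trnF (0.53). Within trnE-trnY-trnD the Col-0 level fell along the genes, from 2.40 at trnE to 1.68 at trnY and 0.80 at trnD. Its start window, at 1.19, lay below trnE and trnY. The slope of this unit was 0.53, 0.62 and 0.02 in Col-0 against -0.39, -0.14 and -0.47 in ptac3. In trnG-trnR the Col-0 start window, at 1.29, lay below trnG at 1.44. Within the rRNA unit the Col-0 level was 2.72 in the start window, 2.06 at rrn16S, 1.75 at rrn23S and 1.45 at rrn4.5S. The start windows of psaJ, rpl23 and the rRNA unit lie next to or over tRNA genes, trnP, trnI and trnV. The part of those tRNA genes in the values was not tested. Before psaJ the mean difference was 1.85 at 350 bp, 0.50 at 150 bp and 0.73 at 50 bp before the start. Enrichment in Col-0 replicates 1 to 3 was 0.57, 0.58 and 0.17 at 150 bp, and 0.69, 0.83 and 0.13 at 50 bp. The second, lower maximum near the gene thus rests on Col-0 replicates 1 and 2. With each unit keeping its own spread, trnG-trnR (adjusted p = 0.115) and trnE-trnY-trnD (0.0526) did not pass in limma, and trnG-trnR did not without Col-0 replicate 3 (0.0845). The trnL-trnF unit did not pass without Col-0 replicate 1 (0.0553) or 2 (0.086).

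The 3 units with the opposite slope were atpB-atpE (-0.86), petL-petG (-0.53) and psbD-psbC-psbZ (-0.46). Their last genes, atpE, petG and psbZ, neighbour the tRNA genes trnM, trnW and trnS (ArthCt117), and the part of those genes in the slopes was not tested. In atpB-atpE, for subunits of the ATP synthase, Col-0 enrichment was -0.87 over atpB and -0.04 over atpE. In petL-petG, for small cytochrome b6f subunits, the slope was -0.12, -0.56 and -1.06 in Col-0 against 0.11, -0.42 and 0.15 in ptac3, so the groups overlapped. With the unit keeping its own spread it did not pass (limma adjusted p = 0.23), nor did it without Col-0 replicate 3 (-0.29), ptac3 replicate 1 (-0.45) or ptac3 replicate 3 (-0.42). That of psbD-psbC-psbZ did not pass without Col-0 replicate 1 (-0.41), Col-0 replicate 2 (-0.49), ptac3 replicate 1 (-0.38) or ptac3 replicate 3 (-0.48).

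**Figure D3:**
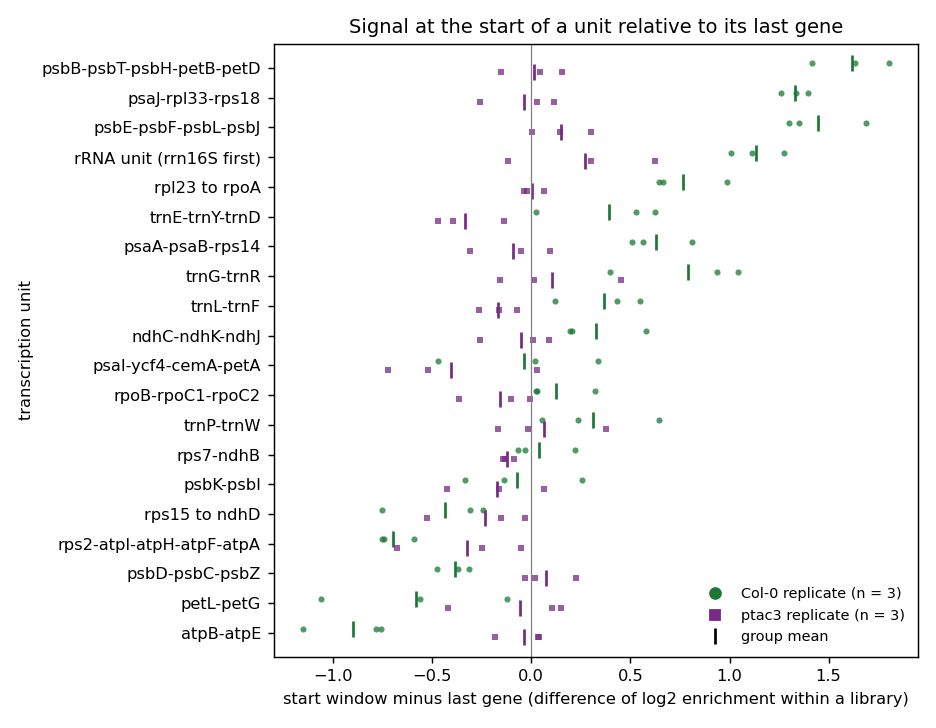
Log2 enrichment in the start window minus that over the last gene for 20 transcription units (vertical axis), within each of 3 libraries of Col-0 (circles) and ptac3 (squares), with group means as bars. The units led by psbB, psaJ and psbE lie at 1.26 or more in all 3 Col-0 libraries, and atpB-atpE lies at -0.76 or less in all 3.

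The windows at the starts of all genes were compared in the same way as gene bodies. Of 128 windows 50 (39.1%) were higher in Col-0 and another 53 (41.4%) lower (limma, adjusted p under 0.05). Of 79 windows of protein-coding genes 11 were higher, where 3 gene bodies were. Among the 74 of these with no tRNA or rRNA gene inside the window, 8 were higher, 49 lower and 17 did not pass, with a median of -0.75. The 8, named because they passed, were rbcL, psbA, psaA, ndhA, psaJ, psbE, psbK and psbB. Both other scalings raise every difference by a constant, so these 8 could not reverse under them. With scaling to the median bin 28 of the 74 windows were higher, and with scaling to the rpo genes 53.

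At rbcL the window had 1.20, 1.81 and 1.21 in Col-0 against -0.71, -0.09 and -0.14 in ptac3, a difference of 1.72 ± 0.21 (SE, limma adjusted p = 4.73e-06) against 0.52 over the gene. At psbA it had 1.45, 1.57 and 1.40 against 0.15, 0.32 and 0.05, a difference of 1.29 that nearly equalled the 1.31 over the gene. These windows were separated without overlap, and the same was so for the 6 others. In either direction, separation held at 61 of the 74 protein-coding windows with no tRNA or rRNA gene inside.

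At psaA, psbE, psbB and ndhA the window and the gene had opposite signs. The window of psaA had 0.61, 0.33 and 0.72 in Col-0 against -0.06, 0.07 and -0.20 in ptac3, a difference of 0.62, while the gene was at -0.42. The window of psbE had 0.69, 0.59 and 0.49 against 0.05, 0.11 and 0.08, a difference of 0.51, while the gene was at -0.66. In both windows all Col-0 libraries lay above all ptac3 libraries. The window of psbB had 0.41, 0.26 and 0.35 against 0.08, -0.31 and -0.01, a difference of 0.42, while the gene was at -0.74. At ndhA, for an NDH subunit, the window had 0.56, 0.94 and 0.37 against 0.20, -0.19 and 0.08, a difference of 0.59, while the gene was at -0.93. With scaling to the median bin the gene values at psaA, psbE and psbB were above 0 as well, at 0.49, 0.25 and 0.17.

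These windows held short regions of bins higher in Col-0, given in TAIR10 positions of the plastid genome. The region before psaA ran from 41901 to 42150 and the one before psbE from 64351 to 64550. The region before psbB ran from 72101 to 72300, and none of these 3 overlapped a gene. The region at ndhA, from 121951 to 122150, overlapped ndhA and its neighbour ndhH, and those of rbcL (54601 to 55550) and psbA (251 to 1650) ran into the gene. The bin with the largest difference lay 200 bp before the start of rbcL (2.53), 150 bp before psaA (1.16), psbE (1.07) and psbB (1.09), and 50 bp before psbA (1.77) and ndhA (1.42), to the nearest 50 bp. At 500 bp inside the gene the difference was still 1.55 at psbA and 0.58 at rbcL, and it was -0.31 at psaA, -0.78 at psbE, -0.80 at psbB and -0.78 at ndhA.

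At psaJ and psbK the largest differences within 600 bp lay 350 and 300 bp before the start, inside regions that hold trnP with trnW and trnQ. The part of those tRNA genes in the window values of 0.55 and 0.46 was not tested. The window of psbK did not pass without Col-0 replicate 1, Col-0 replicate 2, ptac3 replicate 2 or ptac3 replicate 3 (0.35, 0.42, 0.41 and 0.43). That of psbB did not pass without Col-0 replicate 1 (0.39) or ptac3 replicate 2 (0.31), and that of ndhA without Col-0 replicate 2 (0.43). With each window keeping its own spread, ndhA (limma adjusted p = 0.0558) and psbK (0.0703) did not pass.

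**Figure D4:**
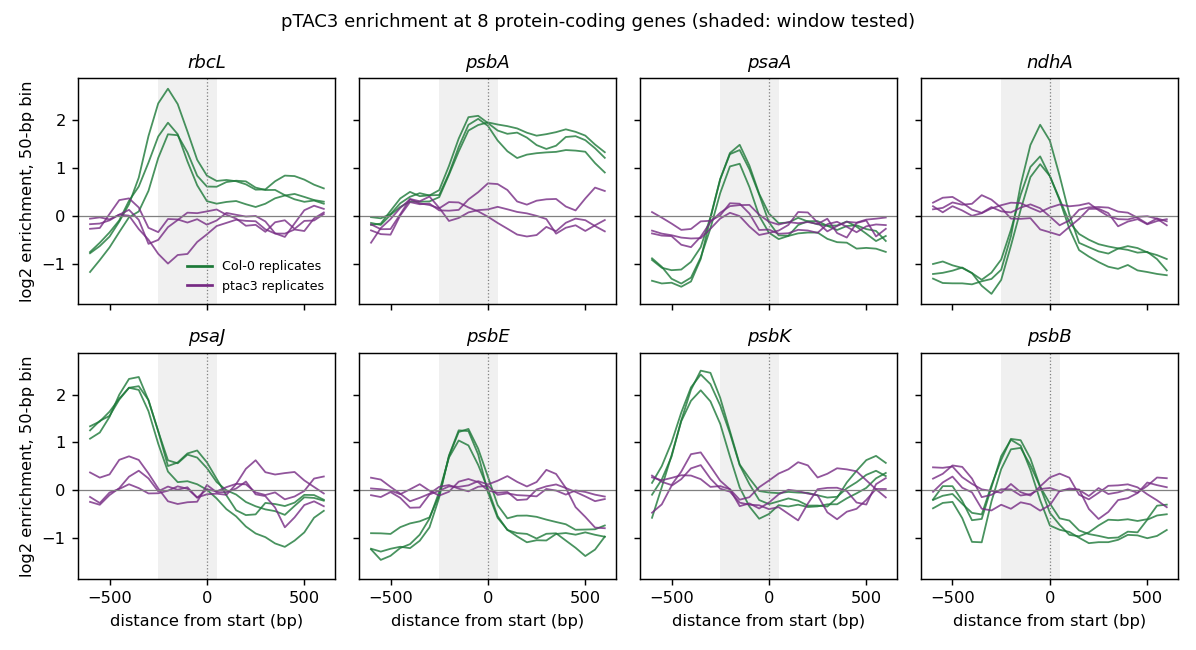
Log2 enrichment of pTAC3 ChIP over input in 50-bp bins by distance from the gene start (horizontal axis, bp) for the 8 protein-coding genes whose start window was higher in Col-0, with 1 line per replicate of Col-0 and ptac3. Col-0 rises to a local maximum before rbcL, psaA, psbE, psbB and ndhA, stays high into psbA, and is highest 300 to 350 bp before psbK and psaJ.

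Averaged over genes, the signal at tRNA genes was centred on the gene start. Over 30 tRNA genes the Col-0 mean was 1.53 ± 0.06 (SD, n = 3) at the start, 0.48 ± 0.15 at 250 bp before it and 0.66 ± 0.08 at 250 bp after it. In ptac3 the same genes had 0.19 ± 0.12 at the start and -0.11 ± 0.04 at 250 bp before it. The mean over the 4 rRNA genes was highest upstream of their starts, at 2.17 ± 0.07 in Col-0 at 150 bp before. It remained at 1.83 ± 0.20 at 500 bp after. These genes belong to the rRNA unit, so the stretch before the later starts holds other genes of that unit. Their start windows differed between the lines by 1.43 at the last rRNA entry to 2.38 at rrn16S. Over 44 photosynthesis genes Col-0 was at -0.47 ± 0.17 at 150 bp before and -0.58 ± 0.13 at 250 bp after. Over 35 genes of gene expression and other functions it was -0.76 ± 0.19 and -0.97 ± 0.20. The photosynthesis mean in Col-0 varied little around the start, from -0.51 at 300 bp before it to -0.47 at 150 bp before and -0.58 at 150 bp after. Its SD between replicates was 0.17 or less. The Col-0 minus ptac3 difference at these points was -0.47, -0.38 and -0.57. The 44 genes include later members of units, and the mean does not show the local maxima before single genes such as rbcL and psbE.

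**Figure D5:**
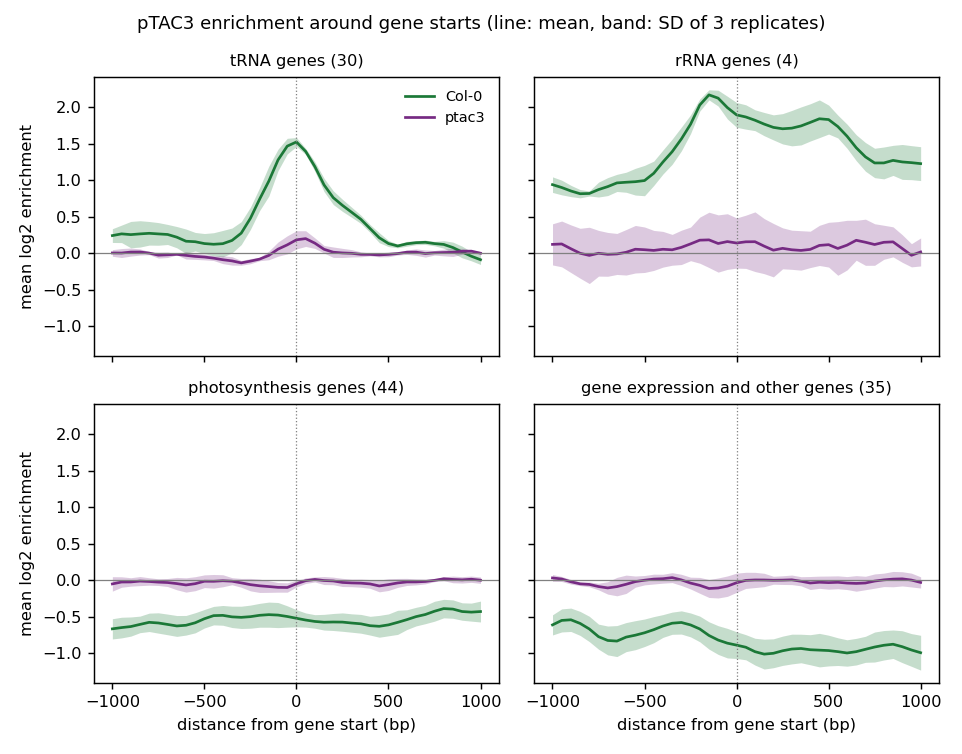
Mean log2 enrichment by distance from the gene start (bp) for 4 groups of genes, with lines for the mean and bands for the SD of 3 replicates in Col-0 and ptac3. The tRNA genes show a Col-0 maximum of 1.53 at the start, the rRNA genes one of 2.17 before it, and both protein-coding groups stay below 0 in Col-0.

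RpoB, a core subunit of PEP, was precipitated from the same lines in separate libraries, which allowed a test of whether the Col-0 minus ptac3 difference of pTAC3 departed from that of RpoB. In an interaction fit limma called 0 of 128 gene entries (0%), with 3 at an unadjusted p under 0.05 and 0 with each gene keeping its own spread. The Col-0 minus ptac3 difference was 2.26 for pTAC3 and 1.79 for RpoB at trnE, 1.88 and 1.76 at rrn16S, 1.31 and 0.97 at psbA, and -1.57 and -1.25 at rpoC2. The interaction at trnE was 0.47 ± 0.26 (SE), and over all entries the SE of the interaction was 0.19 to 0.32. A p above the threshold does not show that the proteins were bound alike. The 3 entries with a low unadjusted p were trnL (ArthCt126) and its repeat copy, and 1 copy of trnN (ArthCt110), named for this reason. At trnL the pTAC3 and RpoB differences were 0.66 and 0.12, with an interaction of 0.54 ± 0.20 (SE, limma adjusted p = 0.958).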

How the data were processed

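The deposited table held whole-number read coverage per position of the plastid genome, 1 column for each library, not scaled to depth. The unit was entered as other, and coverage was read from the values. Per the submitters' processing notes, Trim Galore 0.4.1, Bowtie2 2.2.8.9, bedtools 2.25.0 and the TAIR10 build were used. Read filters, duplicate removal and placement of reads from the inverted repeat are not given in the sources used here. Gene names came from a RefSeq table of the TAIR10.1 assembly. It holds no strands, so strands and transcription units were taken from textbook knowledge.

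Mean coverage of each 50-bp bin was divided by the mean of its library. A pseudocount equal to 5% of that mean was added before taking log2. Input of the same group and replicate number was subtracted. A bin was dropped where its input fell short of 10% of the median bin, which removed 4 of 3090. Gene, unit and window values are means of bin values weighted by overlap. Comparisons used limma 3.58.1 in R 4.3.3, two-sided, with Benjamini-Hochberg adjustment over all features of a kind and a threshold of 0.05. For genes, units and start-to-end differences limma used a spread common to all features, so standard errors within each of these fits are equal. No count model was used. The labels do not say whether replicates were separate cultures, so p-values measure only the spread between these libraries, which may be technical.

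The gene classes, transcription units, members and lists were chosen with earlier results of these data known. Named genes were the highest and lowest of each class, the first and last gene of each unit, and a list of frequently studied genes. Other genes named are marked as chosen by their values.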

Additional observations from a re-analysis of the deposited data

How the results depend on the processing

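Of the settings tried, scaling moved the counts furthest. With scaling to the median bin 1085 bins were higher and 860 lower, 23 genes and 4 units were lower, and 79 start windows were higher and 12 lower. With scaling to rpoB, rpoC1 and rpoC2 there were 1884 higher and 5 lower bins, 105 higher and 0 lower genes, 49 higher and 0 lower units, and 105 higher and 0 lower windows. These are shifts by construction, and differences within a library did not change. The Col-0 minus ptac3 difference became positive with the median bin at psbK 0.75, petN 0.79, psbD 0.70, psbC 0.79, psbZ 0.88, rps14 0.82, psaB 0.35, psaA 0.49, ndhJ 0.66, atpE 0.87, atpB 0.11, psbJ 0.12, psbE 0.25, psbB 0.17 and rpoA 0.13. With the rpo genes it became positive at psbK 1.36, atpA 0.61, atpI 0.18, rpoB 0.030, petN 1.40, psbD 1.31, psbC 1.40, psbZ 1.496, rps14 1.43, psaB 0.97, psaA 1.11, ndhJ 1.27, atpE 1.48, atpB 0.72, accD 0.58, petA 0.42, psbJ 0.74, psbF 0.54, psbE 0.86, petL 0.43, clpP 0.57, psbB 0.79, petB 0.30, petD 0.35, rpoA 0.75, ycf2 0.10, ndhB 0.052, psaC 0.26, the unit rpoB-rpoC1-rpoC2 0.0059, the unit rps7-ndhB 0.032 and the unit ycf2 0.10. Bins of 100 bp gave 331 higher and 1029 lower, since there are fewer bins, and psaJ at -0.0097. With each bin keeping its own spread 1 bin differed from input in ptac3, and 7 slopes along units were higher and 2 lower. Pseudocounts of 1% and 25% of the mean, no filter on input, group mean inputs, ChIP alone and the first repeat copy alone reversed no named gene.

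Leaving out each library in turn gave 605 to 674 higher and 1969 to 2053 lower bins, 43 to 48 higher and 65 to 68 lower genes, 25 to 26 higher units, 45 to 52 higher windows, and 8 to 10 higher and 1 to 4 lower slopes. The lower slopes numbered 1 without ptac3 replicate 1 or ptac3 replicate 3. Values near 0 changed sign over these settings: psaJ ran from -0.065 to 0.13, psbZ from -0.12 to 0.070, ndhC from -0.10 to 0.15, psbK from -0.38 to 0.065, atpE from -0.10 to 0.044 and the slope of psbK-psbI from -0.062 to 0.23.

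Same-numbered Col-0 and ptac3 libraries did not all deviate together (correlations over bins 0.39, -0.25 and -0.05). ChIP and same-numbered input gave 0.28, -0.28 and -0.13 in Col-0 and -0.19, -0.26 and 0.15 in ptac3. With 3 libraries in a group these values cannot show whether the numbers pair libraries. Input was subtracted by number, and with group mean inputs 668 bins and 48 genes were higher. With the replicate number as a block 654 bins and 47 genes were higher, and the slope of psbD-psbC-psbZ did not pass (limma adjusted p = 0.0657).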
